A study of Mus musculus with 4 samples.

Results

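The 10 genes described here encode ETS transcription factors of lymphocytes: Ets1, Ets2, Fli1, Elf1, Elf2, Elf4, Gabpa, Etv6, Elk3 and Elk4. They were taken by name from the ETS family and found, all 10 of them, among 21938 protein-coding genes of the GENCODE mouse models. Their chromatin was read from DNase-seq, in which the enzyme DNase I cuts accessible DNA and the cut ends are sequenced, in naive resting alpha-beta T cells positive for CD8. The primary cells came from virgin female B6CASTF1/J mice, a cross of C57BL/6J with the wild-derived CAST strain, at 2 months of age. The 4 libraries, replicates 1 to 4, form 1 group without a genotype or treatment contrast, so genes, sites and libraries were compared within it. The labels name a separate biosample for each library but 1 shared donor identifier, so any p-value measures only the spread between these libraries.

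ETS factors share a winged helix-turn-helix domain that binds a GGAA core, often within CCGGAA at promoters. In T cells, Ets1, Elf1, Fli1 and Gabpa are known to act at promoters and enhancers of T cell receptor, Il7r and other lymphoid genes, frequently beside RUNX sites, while Elf4 is known in the mouse for restraining proliferation of CD8 T cells. Elk3 and Elk4 are ternary complex factors that bind DNA with Srf, Gabpa binds with a Gabpb partner, and Etv6 is mainly a repressor.

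The longer peak lists held 20647 to 70552 peaks per library, and the steps between peak heights corresponded to 24.3 to 109 M tags, with replicate 4 the shallowest. Consensus sites are merged peaks called in at least 3 libraries, and replicate 4 held 43.8% of the 41228. Of the 2 CD8 lineage markers, Cd8b1 had a promoter peak in each library, at 0.597 (replicate 4) to 1.43 (replicate 2) times the median height of sites shared by all libraries, while Cd8a had one in replicates 1 and 2 but not in 3 and 4. Of the 2 helper lineage markers, Cd4 was at 0 in all 4 libraries and Zbtb7b stood at 0.251, 0.358 and 0.746 in replicates 1 to 3 and highest in replicate 4. Of 10 T cell markers, 10, 10, 9 and 4 had a promoter peak in replicates 1, 2, 3 and 4. Of 10 B cell markers, 7, 6, 8 and 6 had one, and their summed relative height was 2.10, 2.62, 4.40 and 5.0 in the same order, with Spib at 0 in all 4 libraries. Myeloid markers, 3 of 5 in replicates 1 to 3 and 0 of 5 in replicate 4, summed to at most 0.578, and both NK cell markers were at 0. The part of B cell chromatin and of depth in the values below was not tested, and medians are therefore also given for replicates 1 and 2 alone.

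All 10 members had an accessible promoter, taken as a consensus site within 1 kb of an annotated start, against 55.1% of all protein-coding genes. All 10 were called in replicates 1, 2 and 3, where 58.3%, 58.4% and 56.7% of all genes were called, and 9 of 10 in replicate 4, where 46.2% were. In all 4 libraries 9 of 10 members were called, against 45.8% of all genes, and the exception was Fli1. With the shorter peak lists Elk3 had no promoter peak in replicate 4 either. Relative height, the height of the highest promoter peak over the library's median height at sites shared by all 4 libraries, had a median of 1.22 over the members and of 0.220 over all genes, with genes without a peak set to 0. Among the 10058 genes called in all 4 libraries the median was 1.57, so the members' median lay above that of all genes and below that of the open ones. In replicates 1 and 2 alone the medians were 1.01 for the members and 0.241 for all genes.

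**Figure D1:**
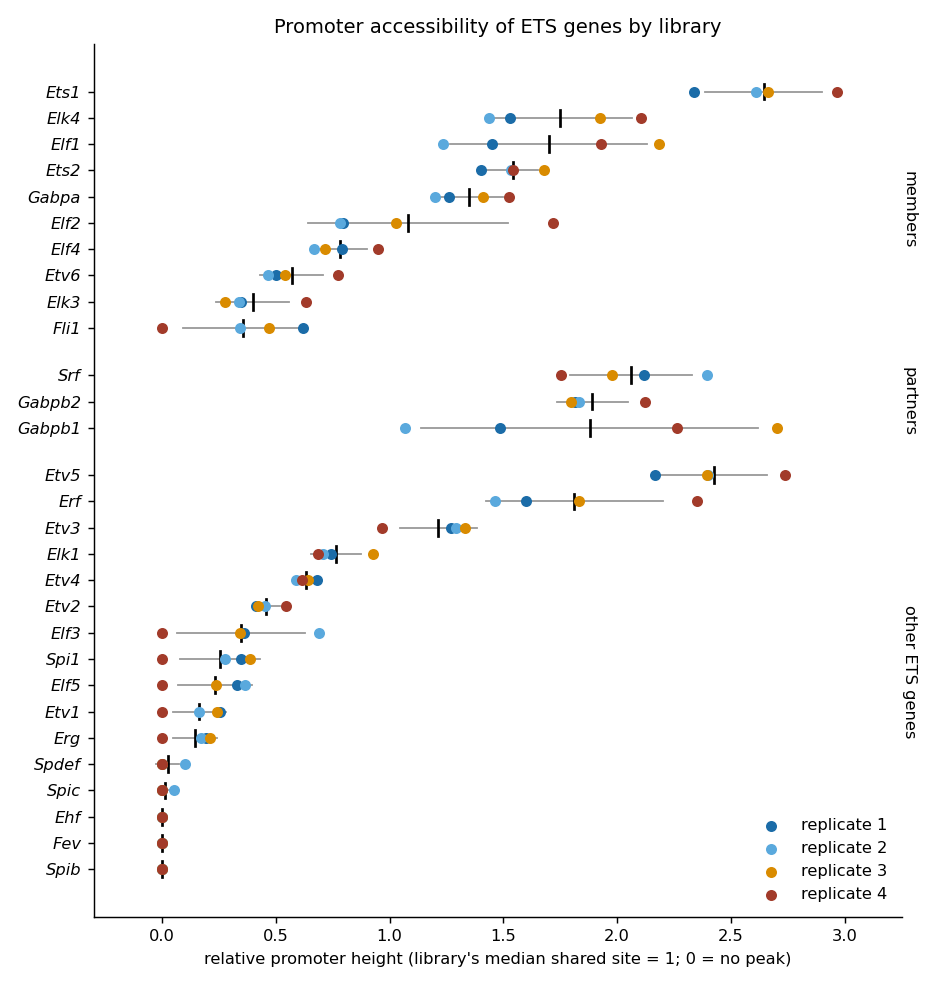
Relative promoter height (x axis, unitless, with the library's median shared site at 1 and 0 for no peak) of the 10 members, 3 partner genes and 16 other ETS genes, with a point per library, the mean as a black tick and the SD as a grey line. Ets1 lies highest among the members at 2.34 to 2.97, Fli1 is at 0 in replicate 4, and 3 other ETS genes are at 0 in all 4 libraries.

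Ets1, the founding member of the family and abundant in resting T cells, had the highest promoter of the list. Its relative height was 2.34, 2.61, 2.66 and 2.97 in replicates 1 to 4 (mean 2.64 ± 0.257, SD, n = 4), rank 1592 of all genes. The lowest Ets1 library lay above every library of Elk4, the next member. Ets1 has 2 groups of annotated starts, and the peak was at the downstream one, chr9:32696022 on the plus strand of GRCm38, whereas the upstream one at chr9:32636221 had no peak in any library. The accessible site spans chr9:32695841-32696100, and its stretch before the start is shown because it carries the footprint found in all 4 libraries, at chr9:32695942-32695977. A footprint is a short stretch within an accessible site that is protected from cutting. The 181 bases, on the plus strand, held 5 matches to the GC box GGGCGG on either strand, here in capitals, and no match to CCGGAA.
Ets1 promoter, chr9:32695841-32696021: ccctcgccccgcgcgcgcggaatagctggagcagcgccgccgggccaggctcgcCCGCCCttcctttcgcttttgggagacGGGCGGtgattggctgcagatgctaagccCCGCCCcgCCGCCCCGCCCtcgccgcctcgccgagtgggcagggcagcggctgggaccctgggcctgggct

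Ets2, the closest relative of Ets1 and an effector of MAP kinase signalling, stood at a relative promoter height of 1.40 in replicate 1, 1.54 in replicate 2, 1.68 in replicate 3 and 1.54 in replicate 4 (mean 1.54 ± 0.113, SD, n = 4). Its 4 libraries were the least spread of the list. The gene lies on chromosome 16, and 1 of its 4 groups of starts, the 5' end, was open. Fli1, known for roles in megakaryocytes and in the effector response of CD8 T cells, had the lowest mean of the list, which rests on replicate 4. Its promoter stood at 0.620 in replicate 1, 0.341 in replicate 2 and 0.471 in replicate 3, and had no peak in replicate 4 (mean 0.358 ± 0.265, SD, n = 4). Both of its groups of starts, about 1 kb apart, were open in the same 3 libraries. Fli1 and Ets1 are neighbours on chromosome 9, divergently transcribed, with 93.4 kb between the genes. Without replicate 4 Fli1 averaged 0.477 and Elk3 0.320, so that Elk3 was then the lower of the pair.

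Elf1, an activator at several T cell genes, stood at 1.45, 1.23, 2.18 and 1.93 across the replicates, in order (mean 1.70 ± 0.434, SD, n = 4), with replicates 3 and 4 the high ones. Its first exon overlaps the start of Wbp4, so Elf1 and Wbp4 cannot be told apart at this peak. A second start at chr14:79515674 was open in all 4 libraries as well, with a mean of 0.653 ± 0.131 (SD, n = 4). Elf2, also called NERF, which exists as activating and repressing isoforms, had 0.796, 0.781, 1.03 and 1.72 (mean 1.08 ± 0.440, SD, n = 4), and replicate 4 stood above the others. Of its 4 groups of starts, 2 were open, the 5' end at a mean of 0.909 and an internal group at 1.07. Elf4, also called MEF, had 0.791, 0.667, 0.718 and 0.947 (mean 0.781 ± 0.122, SD, n = 4), and both of its starts were open in all 4 libraries.

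Gabpa, the DNA-binding subunit of GABP and a regulator of Il7r, had 1.26, 1.20, 1.41 and 1.53 across the replicates (mean 1.35 ± 0.148, SD, n = 4). Its promoter is shared with Atp5j, a gene on the other strand that encodes a subunit of ATP synthase, and the genes cannot be told apart at this site. Etv6, a repressor needed in blood stem cells, had 0.502, 0.465, 0.540 and 0.772 (mean 0.570 ± 0.138, SD, n = 4). Elk4 and Elk3, the ternary complex factors on the list, differed from one another. Elk4 had 1.53, 1.44, 1.92 and 2.11 (mean 1.75 ± 0.318, SD, n = 4), and Elk3 had 0.347, 0.339, 0.275 and 0.632 (mean 0.398 ± 0.159, SD, n = 4), so that every Elk4 library lay above every Elk3 library.

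Ordered by mean, the members ran Ets1, Elk4, Elf1, Ets2, Gabpa, Elf2, Elf4, Etv6, Elk3 and Fli1. Of the 9 neighbouring pairs in this order, Ets1 and Elk4 alone had ranges over the libraries that did not overlap, with a difference of 0.896 ± 0.193 (SD) in 4 of 4 libraries. The exact two-sided sign-flip permutation test over 4 libraries cannot go below p = 0.125, so no pair could pass 0.05. Pairs such as Elk4 and Elf1, with a difference of 0.0494 ± 0.212 (SD) and 3 of 4 libraries in its direction, were within the spread. Replicate 4 gave the highest value for 7 of the 10 members, whereas it was the highest library for 38.3% of the genes called in all 4.

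The 10 genes have 28 groups of annotated starts when starts within 500 bp are joined, and 14 of them were open in at least 3 libraries and 14 had no peak in any library. The CpG content of 1 kb around the start, as observed over expected CpG, ran over 0.349 to 1.01 in the open groups and over 0.0823 to 0.448 in those without a peak. Of the open groups 12 of 14 lay above the median of 0.553 over the 5' ends of all genes, and none of the groups without a peak did. Open and closed groups of starts were not counted over all genes, so these values do not show a trait of the members. The second start of Elf1 was the open one with the lowest ratio, 0.349, followed by the 5' end of Elf4 at 0.511. For Ets1 the upstream start, without a peak, had 0.216 and the open one 0.830. When the 5' end of each gene model alone was counted, 9 of 10 members had a consensus peak and Ets1 was the one without. The share of all genes with a consensus peak at the 5' end alone was not computed. The 55.1% given above counts any annotated start.

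**Figure D2:**
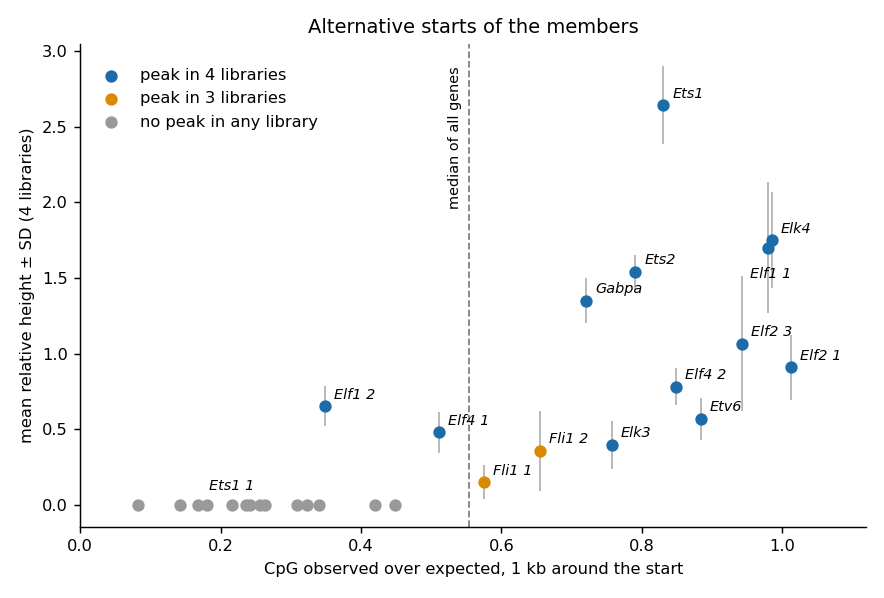
Mean relative height over 4 libraries (y axis, unitless, with SD) against observed over expected CpG in 1 kb around the start (x axis, unitless) for the 28 groups of starts of the members, coloured by the number of libraries with a peak and numbered along the gene where several are open. Open groups lie at 0.349 to 1.01 and groups without a peak at 0.0823 to 0.448; the dashed line is the median of all genes, 0.553.

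At the 10 loci, each the gene body with 25 kb on either side, 83 consensus sites were found. They comprised 22 sites at the members' own promoters, 9 at promoters of other genes and 52 distal ones, or 62.7% distal against 53.6% of all consensus sites. Of the distal sites 38 were intronic, 2 exonic and 12 intergenic. The median was 8 sites per locus over the members and 3 over all protein-coding genes, with median windows of 126 and 67.4 kb. To allow for length, each locus was set beside genes with a window within 20% of its own, for which the median was 3 or 4 sites, and 9 of the 10 members had more. Fli1 had the most sites, 15, where 98.1% of 1316 genes with a similar window had fewer. Elf2 had 13 and Elk3 12, where 97.0% and 97.8% of similar windows had fewer. Ets1 had 10, Elf1 9, Elk4 7, Elf4 6, Etv6 5, Gabpa 4 and Ets2 2. The top rank of Fli1 depended on how sites were called. With the shorter peak lists Fli1 had 10 sites and Elf2 12. With all 4 libraries needed Fli1 had 0 and Elf2 7.

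**Figure D3:**
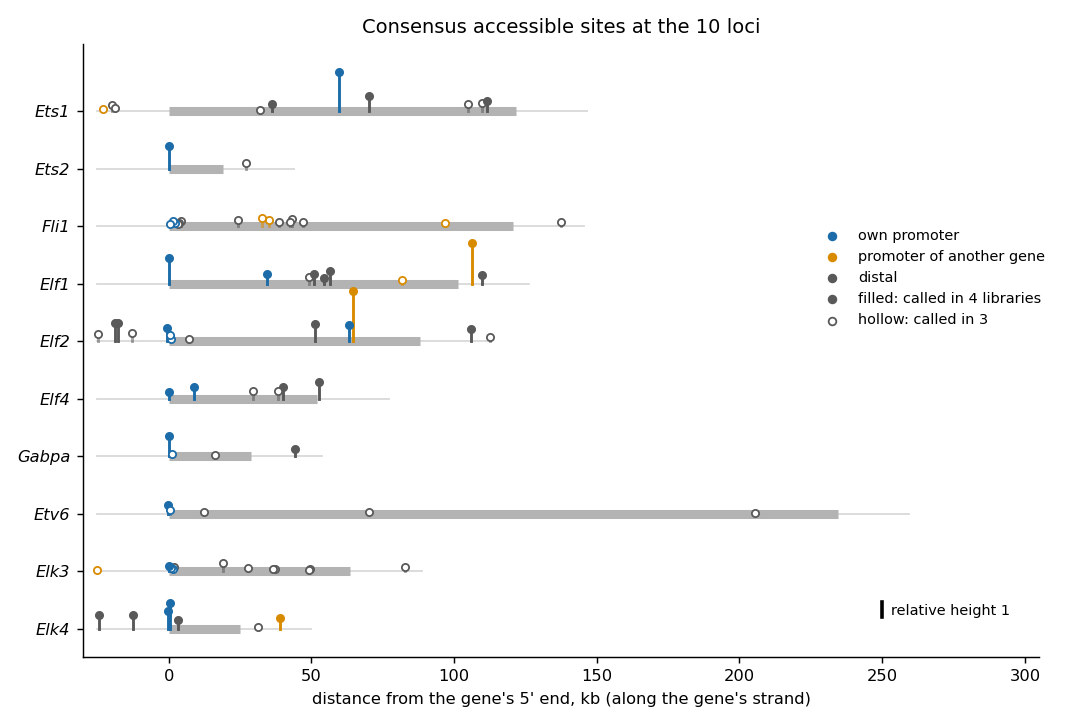
Consensus sites of the 10 loci by distance from the gene's 5' end (x axis, kb, along the gene's strand), with the gene body as a grey bar, stem height as the mean relative height, colour as the site class, and filled heads for sites called in 4 libraries. The highest stems are the Ets1 promoter 59749 bp into the gene, a site inside Elf2 and the Sugt1 promoter beyond Elf1; all Fli1 heads are hollow.

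Ets1 had 8 distal sites, 6 of them in introns. The highest lay at chr9:32706061-32706500, 9896 bp past the open start, and stood at 1.20, 0.931, 1.09 and 0.789 across the replicates. Its mean of 1.00 was above the promoter means of Elf4, Etv6, Elk3 and Fli1. Elf2 had 8 distal sites, of which a pair upstream of the gene, at chr3:51358221-51358440 and chr3:51359281-51359500, averaged 1.22 ± 0.355 and 1.23 ± 0.196 (SD, n = 4). Both lay above the means of the gene's own promoter sites, but within the SD of the highest of these, which averaged 1.07 ± 0.446 (SD, n = 4). The other consensus sites at its own promoters averaged 0.136 to 0.896. Elk4 had its highest distal site 24517 bp upstream, with 1.05, 1.04, 0.839 and 0.842 in replicates 1 to 4. Etv6 had the longest window of the list, 285 kb, and 5 consensus sites, and its 3 distal sites averaged 0.0945 to 0.130.

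The highest distal sites of the other members fell into those held by all 4 libraries and those missed by replicate 4. Elf1 had one over an exon, at chr14:79537501-79537740, 21922 bp past the nearest Elf1 start, which stood at 1.13, 0.931, 0.777 and 0.684 in replicates 1 to 4. Elf4 had one just beyond its 3' end, at chrX:48410221-48410400, with 1.04, 0.998, 1.06 and 1.30. The Elf4 site had a higher mean than either Elf4 promoter, 1.10 ± 0.135 (SD, n = 4). At Gabpa an intergenic site at chr16:84879261-84879480 stood at 0.596, 0.730, 0.406 and 0.368. Sites of replicates 1 to 3 alone were the highest at the other 4 genes. At Fli1 an intronic site at chr9:32499521-32499814 had 0.669, 0.760, 0.467 and 0, and at Elk3 one at chr10:93291981-93292160 had 0.709, 0.895, 0.643 and 0. At Ets2 an intergenic site at chr16:95728821-95729280 had 0.564, 0.509, 0.557 and 0, and at Etv6 an intronic one at chr6:134048073-134048360 had 0.209, 0.141, 0.168 and 0. The Elk3 site stood above the gene's own promoter in replicates 1 to 3, and the Fli1 site in replicates 1 and 2 but not in replicate 3.

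The highest site in any of the 10 loci lay inside Elf2 and was not counted with its promoter. It spans chr3:51276061-51276360, and stood at 3.27, 3.63, 3.44 and 3.21 across the replicates (mean 3.39 ± 0.189, SD, n = 4). It lies in an intron, with its midpoint 1158 bp past the nearest internal Elf2 start. Its nearer edge, chr3:51276360, falls just outside the 1 kb window of that start, chr3:51277368. The site is within 1 kb of the start of 4930577N17Rik, which GENCODE lists as a model to be experimentally checked. With a promoter window of 2.5 kb it would count as Elf2 promoter, and Elf2 would rise to a mean of 3.39 and to the top of the list. The 300 bases are shown on the plus strand because of that height. The capitals mark 2 GC box matches, CCGGAA was not found in it, and 3 footprints were found in all 4 libraries.
Elf2 intron site, chr3:51276061-51276360: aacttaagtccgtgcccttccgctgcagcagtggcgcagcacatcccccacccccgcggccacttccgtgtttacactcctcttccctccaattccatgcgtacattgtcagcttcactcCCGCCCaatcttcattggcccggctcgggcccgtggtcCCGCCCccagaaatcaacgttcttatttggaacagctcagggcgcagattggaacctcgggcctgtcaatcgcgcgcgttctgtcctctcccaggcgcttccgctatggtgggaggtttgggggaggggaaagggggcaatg

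The loci differed in how much of their chromatin replicate 4 held. Of the sites called in both replicates 1 and 2, replicate 4 held 0 of 18 at Fli1, which allows a share of up to 16.7% when 3 counts are taken as the limit. Over all sites in the same range of replicate 1 heights, promoter and distal together, it held 27.8%. Of the distal sites alone it held 0 of 12 at Fli1, against 15.1% of all distal sites in their range. With 3 counts as the limit, 0 of 12 allows a share above that 15.1%. The Fli1 locus also had no footprint and no interval of raised cut rate in replicate 4. Replicate 4 held 1 of 17 sites at Elk3, against 17.9% of all sites in the same range. At the neighbouring Ets1 it held 4 of 15, against 33.9%. In the other direction it held 6 of 9 at Elk4, against 35.1%, and 7 of 16 at Elf1, against 32.0%. Over the 10 loci it held 33 of 111 sites, where 33.6% of all sites in the range were held. Of the distal sites it held 17 of 79, against 16.6%. The limit of 3 counts takes sites as independent, but neighbouring sites of 1 locus are not, and none of these shares was tested. Replicate 3 held 15 of the 18 Fli1 sites, against 87.1%, so the locus lacked called sites in replicate 4 alone. Peaks of replicate 4 had a 5th percentile of relative height of 0.351, and the Fli1 sites had at most 0.880 in replicate 1. The part of depth in the missing sites was not tested.

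**Figure D4:**
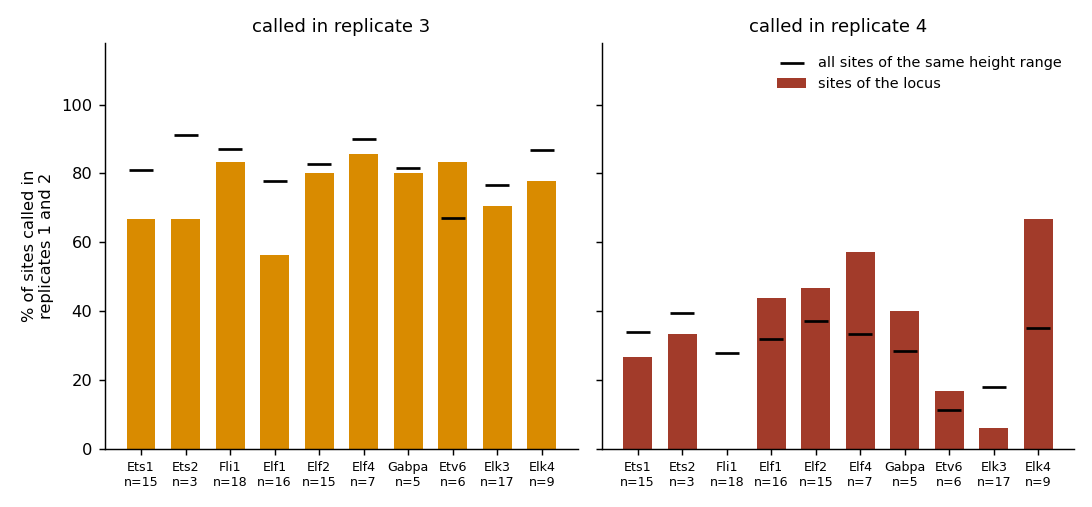
Share of the sites called in replicates 1 and 2 at each locus (n under the gene name) that was also called in replicate 3 (left) and in replicate 4 (right), in percent. Black ticks are all sites in the same range of replicate 1 heights, promoter and distal together. In replicate 4 no Fli1 site and 1 of 17 Elk3 sites was called, against 6 of 9 Elk4 sites.

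Within the 10 loci, sites near a start were higher than distal ones in each library. The log2 ratio of their median heights was 0.52, 0.46, 0.38 and 0.63 in replicates 1 to 4 (mean 0.50 ± 0.11, SD, n = 4). All 4 libraries had the same direction, and the exact two-sided sign-flip permutation test gave p = 0.125, the smallest possible. The mean log2 ratio was 0.20 with the shorter peak lists and 0.19 with a promoter window of 2.5 kb, both with p = 0.375 by the same exact test, so that the direction did not hold in all 4 libraries there. Over all sites of the series the same log2 ratio was 0.92 ± 0.06 (SD, n = 4). The ratio at the members' loci was lower than that in every library, a difference that was not tested. In 6 of the 10 loci the highest own promoter site had a higher mean than the highest distal site, and the others were Fli1, Elf2, Elf4 and Elk3.

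Footprints and cut-rate intervals, stretches in which the deposited lists record a raised cutting rate, were also counted at each locus. The members' loci held a median of 35, 35, 24 and 3 footprints in replicates 1 to 4, against 12, 11, 10 and 1 over all loci. These counts grow with the length of the window. As means over the libraries the members had a median of 23.6, and genes with windows similar to each member's had medians of 8.5 to 11.5. Elf1 had the highest mean, 46.5, from 71, 56, 48 and 11 footprints, and Ets2 and Etv6 had the lowest, 11.8 each. Per kb under peaks the members had medians of 10.9, 9.67, 9.57 and 3.41 footprints against 11.3, 11.2, 11.3 and 5.88 over all loci. Cut-rate intervals covered a median of 3527 bp per member locus and 1524 bp per locus over all genes, whose windows are shorter. Per kb of locus the members' medians were 43.6, 37.2, 30.8 and 11.8 bp in replicates 1 to 4, against 23.1, 20.9, 18.5 and 5.49 bp over all genes. Elf2 had the highest coverage per length, with 67.2, 60.1, 61.4 and 24.4 bp per kb of locus in replicates 1 to 4, and Etv6 had 9.20, 10.2, 8.64 and 2.82 bp per kb, the lowest of the list in replicates 1 to 3. In replicate 4 Fli1 was at 0 and Elk3 at 2.30 bp per kb.

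The letters of the sites were searched for motifs on both strands in their central 200 bp. CCGGAA, the preferred ETS sequence, occurred in 4 of 31 promoter sites of the members' loci, or 12.9%, against 18.8% of 19151 promoter sites in all. It occurred in 3 of 52 distal sites, or 5.77%, against 5.64% of 22077. At neither class of site was its share at the ETS genes well above that of all sites. The RUNX motif TGTGGT, in 12 of 52 distal sites against 24.0% of all, was likewise near the background. AP-1, searched as TGANTCA, was found in 7 of 52 distal sites, or 13.5%, against 6.64%, and CTCF in 4 of 52, or 7.69%, against 19.6%. In the RefSeq promoter windows of GRCm38.p6, 300 bases around and mostly before the start, which were given for 8 of the 10 members, CCGGAA was found in 2 of 13 windows, those of Elk4 and Gabpa, against 14.9% of 32851 promoters. The GC box GGGCGG was found in 10 of the 13 windows, against 35.7% of all, but in 11 of the 31 promoter sites of the loci, or 35.5%, against 47.1% of all promoter sites. These counts are small, a match is not a bound site, and none of these differences was tested.

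**Figure D5:**
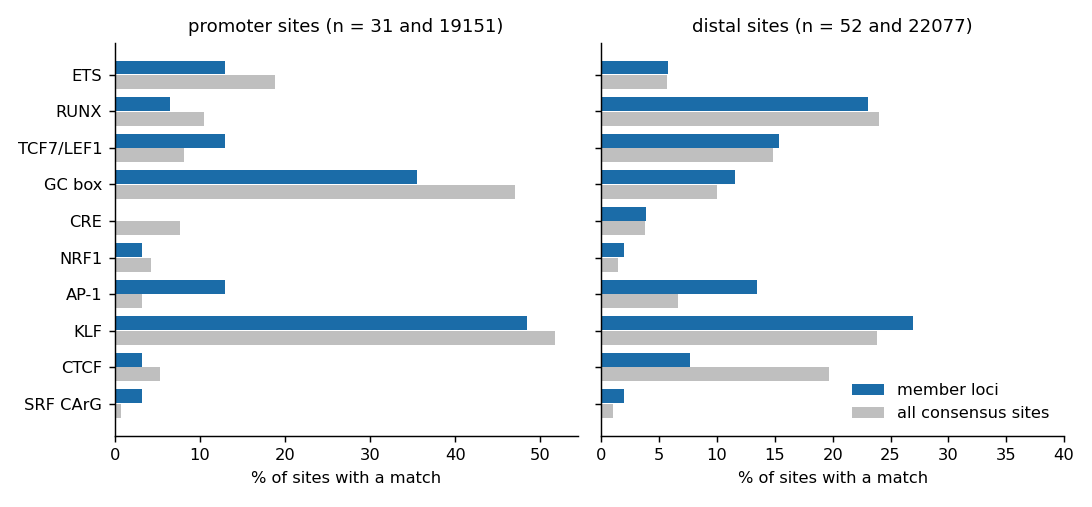
Share of consensus sites (x axis, percent) with a match to each motif in the central 200 bp, for the 10 loci (blue, above) and all consensus sites (grey, below), at promoter sites (left) and distal sites (right). ETS lies at 12.9% against 18.8% at promoters and at 5.77% against 5.64% at distal sites.

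Some CCGGAA matches were covered by footprints, and these are shown because a family member could bind there. Of the members' own promoter sites called in all 4 libraries, matches in Elf1, Gabpa and Elk4 were each overlapped by a footprint in replicates 1, 2 and 3. The Elk4 match lies 55 bp before the gene's first start, in a promoter site that stood at 1.31, 1.07, 1.34 and 1.19 across the replicates. The Elf1 match lies 248 bp past the first start. Each sequence is the plus strand of the C57BL/6J reference, GRCm38, with CCGGAA or its complement in capitals.
Elk4, chr1:132007540-132007569: ccggcccctcccCCGGAAgtgacgctcgcg
Gabpa, chr16:84835020-84835049: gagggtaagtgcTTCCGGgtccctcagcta
Elf1, chr14:79481430-79481459: cgcagccgcccgTTCCGGgagcgcacgggg

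Further matches had no footprint in any library. They included a second one in the Gabpa promoter, one in the Etv6 promoter and one in an Ets1 intron 51795 bp past the open start. These are printed for contrast with those above. Not printed are matches without a footprint in the Sugt1 promoter site of the Elf1 locus, at chr14:79587263 and chr14:79587338. A distal match of that locus, at chr14:79590987, had a footprint in replicate 2 alone.
Gabpa, chr16:84834848-84834877: ccaccgttctacTTCCGGccctggctccgc
Etv6, chr6:134035319-134035348: gccgcgtccttcCCGGAAagccccttccta
Ets1 intron, chr9:32747805-32747834: cagacgggtcacTTCCGGactccagtgttc
Among all footprints in consensus sites of the loci, 4 of 309 held CCGGAA in replicate 1, 4 of 266 in replicate 2, 3 of 252 in replicate 3 and 0 of 43 in replicate 4. Among footprints of all consensus sites the shares were 2.37%, 2.46%, 2.63% and 3.36%, and the 0 of 43 allows up to 6.98%.

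Among the matches to CCGGAA, RUNX and CTCF in member sites called in all 4 libraries, the ones with a footprint in all 4 were all CTCF, the factor of insulators and chromatin loops. They lay at Elf2 and Elf4. At Elf2 both matches had a footprint in all 4 libraries, in sites with means of 0.863 and 1.17. At Elf4 the match just past the 3' end had one in 4 libraries, and those in an intron and near the 5' start in replicates 1, 2 and 3. Any overlap of match and footprint was counted here. A whole CTCF match lay in 1.6%, 1.9%, 2.0% and 2.3% of the loci's footprints with their flanking bases in replicates 1 to 4. Among footprints of all consensus sites the shares were 3.7%, 4.1%, 3.5% and 2.5%. In replicate 4 the loci's share was 1 of 43 footprints, and these shares were not tested. The sequences are shown because 3 of the 5 had a footprint in every library, as did footprints without a CTCF match elsewhere, such as that of the Ets1 promoter. The capitals are the match, on either strand.
Elf2, chr3:51234595-51234630: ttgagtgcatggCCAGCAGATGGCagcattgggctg
Elf2, chr3:51289282-51289317: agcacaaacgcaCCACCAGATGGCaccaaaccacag
Elf4, chrX:48410303-48410338: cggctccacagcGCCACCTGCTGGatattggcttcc
Elf4, chrX:48423138-48423173: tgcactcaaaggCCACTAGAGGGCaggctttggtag
Elf4, chrX:48462836-48462871: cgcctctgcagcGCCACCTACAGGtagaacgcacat

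The partners of the members were open as well. Gabpb1 and Gabpb2, which give GABP its activation domain, had means of 1.88 ± 0.740 and 1.89 ± 0.155 (SD, n = 4). Srf, with which Elk3 and Elk4 bind, had 2.06 ± 0.268 (SD, n = 4). Gabpb1 varied the most among the 3, with 1.48, 1.07, 2.70 and 2.26 in replicates 1 to 4.

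Of 16 other ETS genes, 11 (68.8%) had a consensus promoter site, against 55.1% of all protein-coding genes. In all 4 libraries 6 (37.5%) were called, against 45.8% of all genes. Their median relative height was 0.243, near the 0.220 over all genes. Etv5 was the highest with 2.17, 2.40, 2.40 and 2.74 in replicates 1 to 4, near the level of Ets1, followed by Erf, a repressor, with a mean of 1.81 ± 0.390 and Etv3 with 1.22 ± 0.169 (SD, n = 4). Open promoters were thus also found outside the 10 members. Ehf and Fev, known from epithelium and serotonergic neurons, had no promoter peak in any library. Spi1, which encodes PU.1 of myeloid and B cells, had 0.349, 0.276, 0.388 and 0 in replicates 1 to 4, and Erg had 0.193, 0.171, 0.210 and 0. Spib, an ETS factor of B cells, had none in any library.

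By Euclidean distance over the 4 relative heights, the genes most like Ets1 among 10057 other genes called in all 4 libraries were Megf9, Polr2j and Timmdc1, at distances of 0.0868, 0.142 and 0.144. Megf9 had 2.34, 2.56, 2.62 and 3.02 in replicates 1 to 4.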

How the data were processed

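Peaks, footprints and cut-rate intervals of 4 DNase-seq libraries were used, on mm10 per the labels, which is the mouse genome GRCm38. For the aligner and peak caller, settings were not given in the sources used here. Each peak carries a deposited signal, its height per depth of the library. All low heights were within 0.05 of whole multiples of 1 step, whose reciprocal was read as M tags. The deposited footprint and cut-rate values read as a p-value or q-value: the footprint value was 0.01 in every entry, and cut-rate intervals below 0.05 were counted. Without read counts per site, counting intervals were not computed.

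Peaks of the longer list of each library were merged at 1 bp of overlap, and the consensus comprised sites found in 3 or 4 libraries. A promoter was 1 kb on each side of any annotated start (GENCODE mouse release 21), a locus the gene body with 25 kb on each side, and a missing peak counted as 0. The members and gene lists were chosen with earlier results of these data known, so their counts stand beside those over all genes and not in a test. Named were all members, the 3 highest other ETS genes called in all 4 libraries, the first 2 alphabetically called in none, Spi1, Spib, Erg, the partners, the 3 genes nearest Ets1, and for each member its highest promoter and distal site; the Elf2 intron site, the second Elf1 start, the Elf2 upstream pair, the Ets1, Etv6 and other motif matches and the CTCF matches were named after their values were seen. Sequences came from the reference genome in the GRCm38.p6 assembly, which matched the RefSeq promoters in 165 of 165 compared, and are those of C57BL/6J, not of the CAST parent. For values over libraries the test was an exact permutation of signs, two-sided. Alternatives are in the closing section. The steps were tested on simulated peaks, and 7 of 7 checks were passed. Python 3.11.15, numpy 2.4.6, pandas 2.3.3, scipy 1.17.1, pysam 0.24.0 and matplotlib 3.10.9 were used.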

Additional observations from a re-analysis of the deposited data

Results flagged for a closer look

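In 4 of 41 sets of 4 library values, 1 library lay far from the others by Dixon's ratio at the 95% level. The ratio is taken relative to the range of the set. Chance gives about 1 in 20 for independent sets, but these sets share loci and libraries, so that rate does not apply directly. Replicate 4, the shallowest library, was the low one each time. The Ets1 locus had 930 bp of cut-rate intervals in replicate 4, against 5358, 6062 and 5222 bp in replicates 1 to 3. The Elf2 locus had 3359 bp, against 9268, 8293 and 8464 bp. The Ets2 locus had 3 footprints in replicate 4, against 16, 14 and 14, and the Etv6 locus had 2, against 16, 15 and 14. The part of depth in these values was not tested.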

How the results depend on the processing

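No paired analysis was possible because the series has 1 group. Of 76 values recomputed under another setting, 14 moved away from the reported value. For counts of genes or sites this meant by more than a set factor, for the others by more than the SD between libraries. The log2 ratio below was judged by its sign alone, as the only result that can change sign. The log2 ratio of promoter over distal height, reported as 0.50, was positive under all 11 settings tried for it but was 0.19 with a promoter window of 2.5 kb and 0.20 with the shorter peak lists, both with p = 0.375 by the exact permutation test over 4 libraries. It was 0.84 with a 0.5 kb window and 0.85 as a ratio of means. The members with a consensus promoter numbered 9 or 10 under every setting. Their median relative height, reported as 1.22, was 0.905 with the shorter peak lists, 0.739 with 5' ends alone, 3.73 over the median of all peaks and 0.922 over the median of promoter peaks, and 1.08 to 1.29 without 1 replicate. For 5' ends alone, neither the count nor the median was computed over all genes. The median number of sites per locus, reported as 8, was 12.5 with 2 libraries needed, 3 with all 4 needed, 14 with a 100 kb flank, and 3 to 8 without 1 replicate, since all 3 others were then needed. The distal share, reported as 62.7%, was 50.0% to 63.4% without 1 replicate. The medians per locus of 23.6 footprints and 3527 bp of cut-rate intervals were 41.6 and 6640 bp with a 100 kb flank, and cut-rate intervals covered 2141 bp with cut-rate values below 0.001. Added after the data were seen, the scale from sites shared by replicates 1 to 3 gave a median height of 2.60, since more and lower sites then set the scale, and replicates 1 and 2 alone gave 12 sites and 36 footprints per locus and 69.9% distal.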
